A study of Mus musculus with 22 samples.

Results

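The comparison described here is the genotype by day interaction in chondrocyte cultures, that is, how far the difference between Dnmt1 conditional knockout (cKO) and control cultures at day 3 departed from the same difference at day 0. It was formed gene by gene as (cKO day 3 minus control day 3) minus (cKO day 0 minus control day 0) on the log2 scale, from all 14 culture libraries of the 22 samples in the series. Controls carried the Dnmt1 flox allele and cKO cultures were Prrx1-Cre;Dnmt1 flox/flox, both as chondrocytes from mouse knee articular cartilage taken on postnatal days 3 to 5. Prrx1-Cre drives recombination in limb bud mesenchyme, so the deletion preceded the culture and other cells of limb mesenchyme can carry it too. There were 3 control and 3 cKO libraries at day 0, before BMP2, and 4 control and 4 cKO libraries at day 3, after 3 days with BMP2 (100 ng/µl, the concentration as labelled) in medium with 10% serum that the labels give for the cultures. The labels call the libraries of a group biological replicates without saying whether each came from its own animal or litter, so the p-values measure the spread between these cultures. A positive value means that the cKO to control ratio was higher at day 3 than at day 0, whichever of the 4 groups moved.

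DNMT1 is the maintenance methyltransferase that copies CpG methylation onto the new strand after DNA replication, and cells that divide without it lose methylation at silenced promoters. BMP2 acts through type I and type II receptor kinases and SMAD1, SMAD5 and SMAD9, and in cartilage it drives matrix synthesis, hypertrophy and, in mesenchymal cells more widely, bone formation. Resting and proliferating chondrocytes live with little oxygen and make much of their energy by glycolysis under HIF1A, whereas muscle genes stay silent in them.

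Dnmt1 itself was checked first. At day 0 Dnmt1 stood at 166, 153 and 154 CPM in control and at 27.4, 26.8 and 32.8 CPM in cKO cultures. At day 3 Dnmt1 stood at 81.5, 63.3, 63.9 and 67.3 CPM in control and at 34.3, 35.6, 22.2 and 10.9 CPM in cKO cultures. Every cKO library lay below every control library of its day, and the deficit was -2.44 on the log2 scale at day 0 and -1.42 at day 3. The Dnmt1 difference was 1.02 ± 0.39 (adjusted p = 0.097), and 1.28 (adjusted p = 0.00039) without replicate 4. Reads from the part of Dnmt1 outside the deleted exons would still count here, so the level is that of all transcripts assigned to the gene. CPM are the counts of a library scaled to the usual CPM total and adjusted by trimmed mean of M-values (TMM) factors, and the cKO day 3 values are given in the order of the replicate numbers, replicate 4 last.

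Library totals were 41749546 to 51741669 counts at day 0 and 14434320 to 18918905 at day 3, and 3 counts, the floor used here for each library, were worth 0.0582 to 0.0721 CPM at day 0 and 0.148 to 0.206 CPM at day 3. Day, BMP2, count table and depth changed together, so they cannot be told apart in any term of the contrast. In cKO day 3, replicate 4 stood apart from the other 3 libraries. The chi-square statistic of its counts against each of them, divided by its degrees of freedom, was 134.2 to 149.5, and 7.894 to 11.62 among those 3. Its Pearson correlation of log2 CPM with them, across genes, was 0.945 to 0.952, against 0.991 to 0.993 among those 3. Cartilage marker levels were checked as well. Control levels of Col2a1 were 105800, 99890 and 104900 CPM at day 0 and 71940, 72400, 66070 and 75930 CPM at day 3. Levels of Col2a1 in cKO cultures were 40180, 48300 and 41530 CPM at day 0 and 11300, 8399, 12110 and 706 CPM at day 3. The Col2a1 level in replicate 4 was thus far below that of every other library, and Matn1, another cartilage matrix gene, had 0 counts in it. The contrast was therefore fitted over 14 libraries and over the 13 without that library. Where 1 value is printed with no fit named, it is over 14 libraries. The 113 genes followed here that were called over 14 libraries kept call and direction over 13, and many were chosen for being called in both.

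Over 14 libraries the interaction was called for 2509 of 14909 genes tested (16.8%), by edgeR's quasi-likelihood test at an adjusted p (Benjamini-Hochberg) under 0.05. Of these, 1482 were higher (9.94% of genes tested) and 1027 lower (6.89%). Without replicate 4, 4051 of 14833 genes were called (27.3%), 2326 higher (15.7%) and 1725 lower (11.6%). In both fits 2496 of the 14810 genes tested in both were called in the same direction (16.9%), 1472 higher (9.94%) and 1024 lower (6.91%), and 1550 genes were called only without replicate 4. No gene was called in opposite directions in these fits. The median difference over all genes tested was 0.015 over 14 libraries and 0.013 over 13. Each day 0 group held 3 libraries, and counts of calls moved with single ones. With 1 library left out at a time they were 1591 without control day 0 replicate 2, 1668 without control day 0 replicate 3, 1604 without cKO day 0 replicate 3, between 1689 and 2487 without any other single library, and 4051 without cKO day 3 replicate 4.

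**Figure D1:**
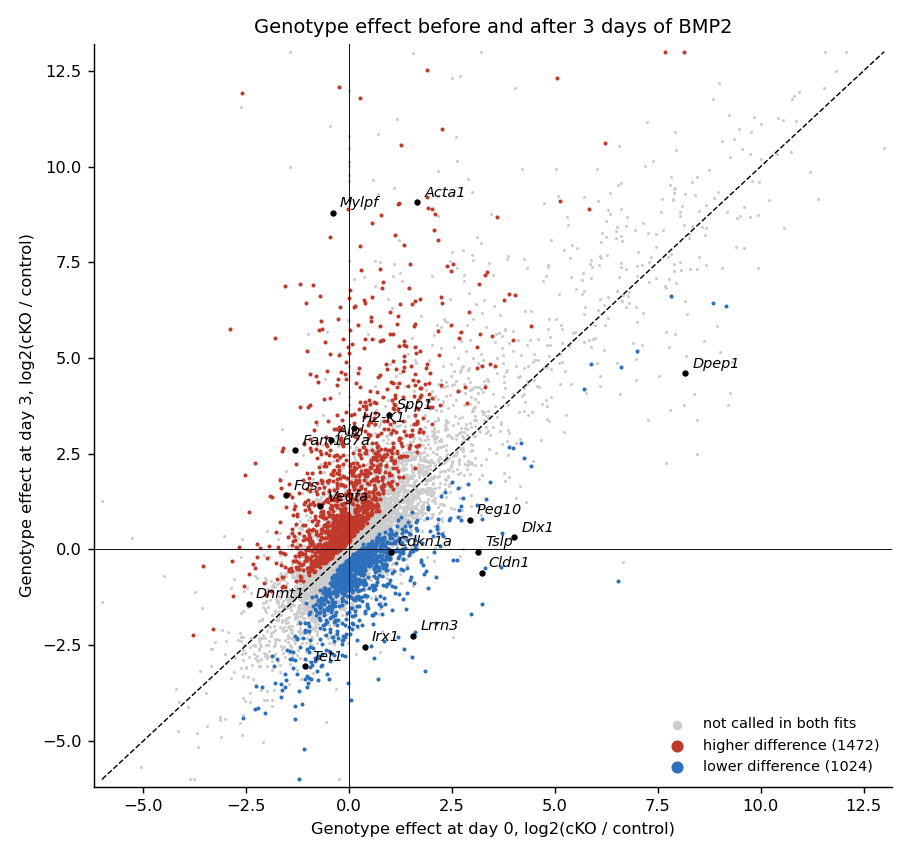
Genotype effect (log2 cKO over control) at day 0 on the x axis against that at day 3 on the y axis, 1 point per gene tested over 14 libraries, with values past the axis limits drawn at the edge. Red marks the 1472 genes called higher and blue the 1024 called lower in both fits, and a gene on the diagonal has the same genotype effect on both days.

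The genotype effect itself was called for 42% of genes tested at day 0 (21.1% higher in cKO and 20.9% lower) and for 57.8% at day 3 (30.3% higher and 27.5% lower). The genes called for the interaction reached it by several routes. Among the 1472 higher genes, 679 (46.1%) had a genotype effect called at day 3 and not at day 0, 297 (20.2%) were called in the same direction on both days with the larger effect at day 3, 256 (17.4%) were called at day 0 and not at day 3, and 123 (8.36%) were called in opposite directions. Among the 1024 lower genes the same counts were 437 (42.7%), 172 (16.8%), 230 (22.5%) and 97 (9.47%). Read over time, the commonest pattern of the higher genes was no call in controls and a rise in cKO cultures (510, 34.6%), followed by a fall in controls with no call in cKO cultures (315, 21.4%). Of the lower genes, 287 (28.0%) fell in cKO cultures with no call in controls and another 287 rose in controls with no call in cKO cultures. A single positive or negative value therefore does not show which genotype or day moved, and the levels of the 4 groups are given beside the genes named here.

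**Figure D2:**
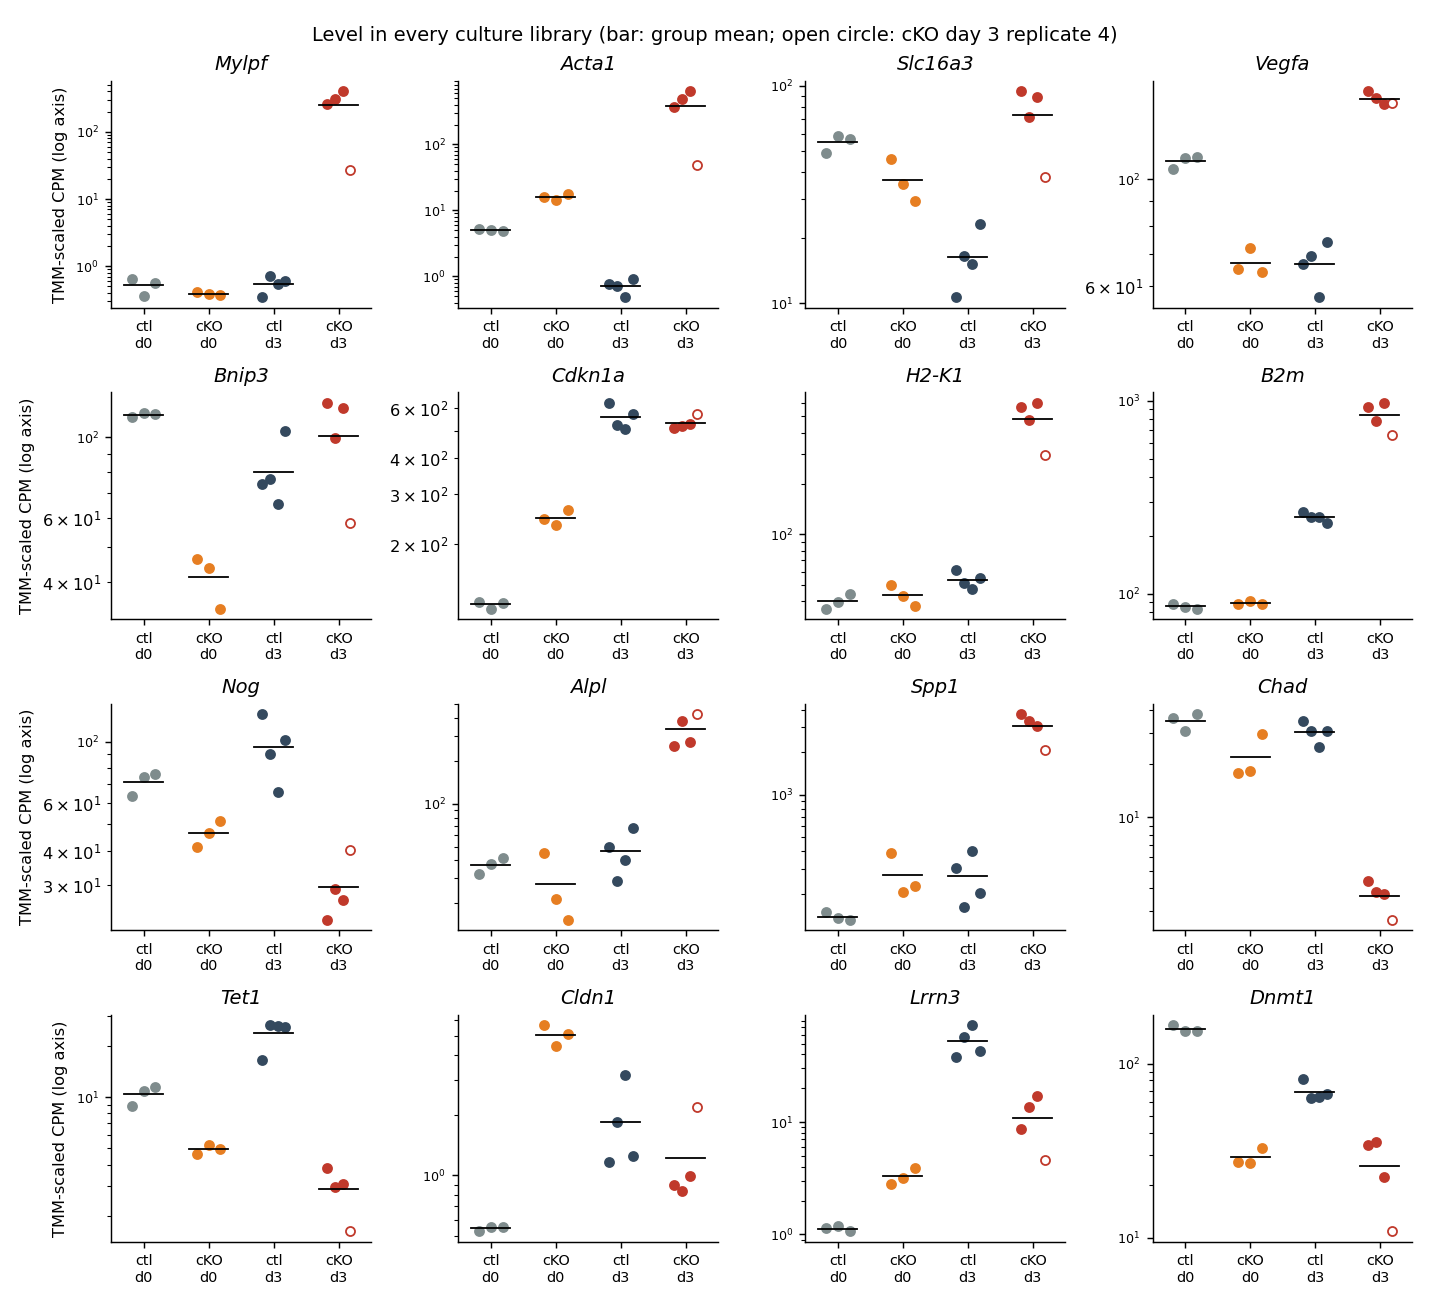
Level of 16 genes in each of the 14 libraries (TMM-scaled CPM on a log axis), 1 panel per gene and 1 column per group, with a bar at the group mean. The open circle is cKO day 3 replicate 4, which lies within the other cKO day 3 libraries for Vegfa and far below them for Mylpf and Acta1.

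Skeletal muscle genes led the positive differences. Of 26 sarcomere genes tested, which encode the contractile filaments and the calcium release apparatus of muscle fibres, 16 were called higher and 0 lower over 14 libraries, and 25 higher without replicate 4. By comparison, 9.94% of all genes tested were higher and 6.89% lower over 14 libraries, and 15.7% and 11.6% over 13. The count depended on the tool: over 14 libraries DESeq2 called 25 of the 26 sarcomere genes and limma voom 10. Among all 14909 genes tested DESeq2 called 3379 and limma voom 2911. The median difference of the sarcomere genes was 7.21, and 7.58 without replicate 4, on a background median near 0. With the 12 members that had a whole group at or under 3 counts set to that floor, the median was 6.26. The regulators and receptors of myogenesis followed, with 6 of 13 called higher and 0 lower, and a median of 5.93 (4.14 at the floor). At day 0 the median genotype effect of the sarcomere genes was 0.66, and at day 3 it was 8.77.

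Mylpf, the regulatory light chain of fast skeletal myosin, headed the genes with no group at the floor. At day 0 Mylpf stood at 0.634, 0.359 and 0.554 CPM in control and at 0.408, 0.39 and 0.369 CPM in cKO cultures. At day 3 Mylpf stood at 0.343, 0.706, 0.54 and 0.594 CPM in control and at 258, 306, 401 and 27.4 CPM in cKO cultures. Its 3 other groups overlapped one another below 1 CPM, while all 4 cKO day 3 libraries lay above them, replicate 4 lowest. The Mylpf difference was 9.20 ± 1.45 (adjusted p = 0.0013), and 9.57 (adjusted p = 6.1e-08) without replicate 4. Acta1, the actin of skeletal muscle, was already higher in cKO cultures at day 0. Control levels of Acta1 were 5.29, 5.09 and 4.83 CPM at day 0 and 0.754, 0.706, 0.48 and 0.923 CPM at day 3. Levels of Acta1 in cKO cultures were 15.8, 14.4 and 17.7 CPM at day 0 and 365, 485, 636 and 48.3 CPM at day 3. Control Acta1 fell over the days and cKO Acta1 rose, and the groups at day 3 did not overlap. The Acta1 difference was 7.41 ± 0.97 (adjusted p = 0.00044), and 7.78 (adjusted p = 1.0e-08) without replicate 4. Their upstream sequences are printed because the muscle genes moved together and because the muscle regulators MYOD1 and MYOG bind the letters CANNTG, the E-box. Each line gives the 250 bases before the annotated start (RefSeq, GRCm38.p6), with each CANNTG match in capitals. Mylpf lies at chr7:127211358-127211607 on the plus strand and Acta1 at chr8:123894776-123895025 on the minus strand.
Mylpf: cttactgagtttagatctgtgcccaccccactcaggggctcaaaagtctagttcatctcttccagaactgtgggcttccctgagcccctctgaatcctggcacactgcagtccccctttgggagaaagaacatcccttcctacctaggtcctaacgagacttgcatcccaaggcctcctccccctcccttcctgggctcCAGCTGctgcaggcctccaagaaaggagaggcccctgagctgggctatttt
Acta1: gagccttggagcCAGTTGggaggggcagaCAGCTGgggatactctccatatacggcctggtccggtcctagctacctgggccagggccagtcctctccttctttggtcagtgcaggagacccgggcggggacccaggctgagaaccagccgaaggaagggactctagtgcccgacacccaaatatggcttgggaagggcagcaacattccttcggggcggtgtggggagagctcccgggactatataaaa
Mylpf held 1 match, 51 bases before the start, and Acta1 held 2, at 238 and 221 bases. CANNTG reads the same on both strands, and 57.2% of the 11125 tested genes with a promoter in the table held at least 1, against 60.0% (654 of 1090) of the higher genes, 56.7% (455 of 803) of the lower genes and 18 of the 23 sarcomere genes that matched (78.3%). Other lists held a match in 73.3% (interferon-stimulated genes), 68.8% (cartilage matrix), 60.9% (glycolysis), 53.3% (hypoxia response) and 46.2% (p53 targets). The median count of CG was 5 in the sarcomere promoters and 15 in all, and these shares are not weighted for it. A match is a description of the letters and not a bound site.

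Genes that act before the sarcomere showed 2 kinds of time course. At day 0 Myod1 stood at 0, 0 and 0 CPM in control and at 13.8, 8.27 and 12.1 CPM in cKO cultures. At day 3 Myod1 stood at 0.137, 0, 0.06 and 0 CPM in control and at 25.1, 37, 45.7 and 6.8 CPM in cKO cultures. Myod1, the master regulator of the muscle lineage, was thus present in cKO cultures before BMP2 and absent or nearly so from controls, and its difference of -2.24, a fitted value that depends on the prior count where controls are near 0, was not called (adjusted p = 0.61, and 0.45 without replicate 4). At day 0 Myog stood at 0.0219, 0 and 0 CPM in control and at 0.024, 0 and 0 CPM in cKO cultures. At day 3 Myog stood at 0.0685, 0.0543, 0.06 and 0 CPM in control and at 42.4, 61.7, 68.7 and 3.17 CPM in cKO cultures. Myog, which drives terminal muscle differentiation, was at the floor in the other 3 groups. Its cKO day 3 level was at least 662-fold higher than in cKO cultures at day 0 and at least 236-fold higher than in controls at day 3, each against a floor of 3 counts per library, although its fitted interaction was not called over 14 libraries (adjusted p = 0.49) and was over 13 (0.04).

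Mymk, or myomaker, the membrane protein that myoblasts need in order to fuse, was under 0.4 CPM in every library of the other groups. Control levels of Mymk were 0.393, 0.338 and 0.208 CPM at day 0 and 0.137, 0.163, 0.36 and 0.33 CPM at day 3. Levels of Mymk in cKO cultures were 0.144, 0.161 and 0.0194 CPM at day 0 and 28.5, 38.8, 47.6 and 2.31 CPM at day 3. The Mymk difference was 8.43 ± 1.53 (adjusted p = 0.003), and 8.83 (adjusted p = 1.5e-06) without replicate 4. Chrna1 encodes a subunit of the acetylcholine receptor of the muscle endplate. At day 0 Chrna1 stood at 0.415, 0.296 and 0.277 CPM in control and at 0.36, 0.367 and 0.466 CPM in cKO cultures. At day 3 Chrna1 stood at 0.343, 0.109, 0.24 and 0.33 CPM in control and at 36.3, 53.5, 61.5 and 6.75 CPM in cKO cultures. Its 4 cKO day 3 values did not overlap any other group. The Chrna1 difference was 7.02 ± 1.15 (adjusted p = 0.0016), and 7.37 (adjusted p = 8.0e-07) without replicate 4. Others among the 12 largest positive differences of genes with no group at the floor were Smyd1 (7.50, and 7.87 without replicate 4), a lysine methyltransferase of muscle, Myl4 (6.54, and 6.93 without replicate 4), an embryonic myosin light chain, Ttn (6.21, and 6.54 without replicate 4), the giant sarcomeric spring titin, Casq1 (6.05, and 6.43 without replicate 4), the calcium buffer of the sarcoplasmic reticulum, Hrc (6.63, and 7.0 without replicate 4), another protein of that store, Tnni2 (6.56, and 6.95 without replicate 4) and Tnnt3 (6.26, and 6.65 without replicate 4), the fast troponins I and T, and Mybph (7.98, and 8.38 without replicate 4), a myosin binding protein. All 12, ranked among genes called in both fits, with no group at the floor and a mean log2 CPM of 1 or more, were muscle genes. Casq1 lost its call under limma voom (adjusted p = 0.061). The call of Hrc was lost without control day 0 replicates 1 and 2 and cKO day 0 replicates 1 and 2, one at a time (adjusted p up to 0.14) and under limma voom and thinning to one depth (adjusted p up to 0.07). For Tnni2 the call was lost under limma voom (adjusted p = 0.065). Tnnt3 lost its call under limma voom (adjusted p = 0.13). The call of Mybph was lost without control day 0 replicates 1 and 2, one at a time (adjusted p up to 0.053) and under limma voom (adjusted p = 0.16). The sarcomeric myosin heavy chain genes are near-identical neighbours among which reads can be split, so they enter the counts and are not named.

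Replicate 4 held less of this transcript class. For sarcomere genes the summed level ran from 29 to 34.9 CPM in control and 67.4 to 74 CPM in cKO cultures at day 0, and from 12.6 to 14.2 CPM in control and 2186 to 3511 CPM in cKO cultures at day 3, with replicate 4 at 254 CPM. Its sarcomere sum still exceeded that of every library outside cKO day 3, so the direction was the same in all 4 cKO day 3 libraries while the size was not. In bulk libraries, more cells of a muscle type and more muscle RNA per cell cannot be told apart.

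Genes of glycolysis and of the hypoxia response formed another set of positive differences, of a smaller size and from a different course. Of 24 glycolysis genes, 12 were called higher and 0 lower (20 higher and 0 lower without replicate 4), with a median of 0.72, and 0.80 without replicate 4. By comparison, 9.94% of all genes tested were higher and 6.89% lower over 14 libraries, and 15.7% and 11.6% over 13. Of 18 hypoxia response genes, 9 were higher and 0 lower (10 higher and 2 lower without replicate 4), with a median of 0.75, and 0.80 without replicate 4. The median genotype effect of the glycolysis genes was -0.55 at day 0 and 0.17 at day 3, and that of the hypoxia genes -0.39 and 0.36. Both medians were below 0 at day 0 and above 0 at day 3.

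Slc16a3, the monocarboxylate transporter MCT4 that exports lactate, showed the largest difference in the glycolysis list. At day 0 Slc16a3 stood at 49, 58.9 and 57 CPM in control and at 46.2, 35.4 and 29.4 CPM in cKO cultures. At day 3 Slc16a3 stood at 10.6, 16.4, 15.2 and 23.1 CPM in control and at 94.3, 72, 89 and 38 CPM in cKO cultures. Levels fell in controls and rose in cKO cultures between the days, with replicate 4 inside the cKO day 0 range, and the day 3 groups did not overlap. The Slc16a3 difference was 2.74 ± 0.41 (adjusted p = 0.001), and 2.95 (adjusted p = 1.0e-05) without replicate 4. Pfkfb3 makes the allosteric activator of phosphofructokinase. Control levels of Pfkfb3 were 59.6, 67.7 and 67.9 CPM at day 0 and 41.5, 53.5, 48.3 and 62.5 CPM at day 3. Levels of Pfkfb3 in cKO cultures were 40.8, 37.4 and 34.9 CPM at day 0 and 106, 81.4, 92.8 and 46.6 CPM at day 3. At day 3 replicate 4 fell inside the control range and the other 3 cKO libraries lay above it. The Pfkfb3 difference was 1.45 ± 0.30 (adjusted p = 0.0065), and 1.65 (adjusted p = 1.9e-05) without replicate 4.

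Hexokinase 2 (Hk2) overlapped between genotypes at day 3 and not at day 0: 60.6, 60.1 and 55.9 CPM in cKO against 120.1, 124 and 128 CPM in control cultures at day 0, and 46.7, 41, 43.7 and 42.8 against 48, 45.1, 38.1 and 58 CPM at day 3. Its difference was 0.96 (adjusted p = 0.0012). Aldolase A (Aldoa), an enzyme of the middle of the pathway, crossed over instead. At day 0 Aldoa stood at 539, 572 and 575 CPM in control and at 406, 383 and 381 CPM in cKO cultures. At day 3 Aldoa stood at 467, 459, 413 and 542 CPM in control and at 763, 726, 845 and 558 CPM in cKO cultures. All 3 cKO libraries were below controls at day 0 and all 4 above them at day 3. The Aldoa difference was 1.15 ± 0.17 (adjusted p = 0.001), and 1.26 (adjusted p = 8.2e-06) without replicate 4. Further members called were Gapdh (0.88), the glucose transporter Slc2a1 (0.89), Pfkl (1.33), Tpi1 (0.82), Pkm (0.70), Eno2 (0.86) and Hk1 (0.43), each at an adjusted p between 0.0017 and 0.016.

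Vegfa, the angiogenic growth factor that HIF1A induces and that hypertrophic cartilage also makes, gave nearly the same difference with and without replicate 4. At day 0 Vegfa stood at 105, 111 and 111 CPM in control and at 65.1, 72 and 64 CPM in cKO cultures. At day 3 Vegfa stood at 66.7, 69.1, 56.9 and 74.2 CPM in control and at 152, 147, 143 and 144 CPM in cKO cultures. Replicate 4 lay within the other cKO libraries. The Vegfa difference was 1.83 ± 0.11 (adjusted p = 4.9e-06), and 1.84 (adjusted p = 1.5e-07) without replicate 4. Bnip3, a mitophagy receptor induced by low oxygen, had its cKO deficit at day 0. Control levels of Bnip3 were 114, 117 and 116 CPM at day 0 and 74.2, 76.5, 65.4 and 104 CPM at day 3. Levels of Bnip3 in cKO cultures were 46.2, 43.6 and 33.7 CPM at day 0 and 124, 99.5, 120.1 and 58.2 CPM at day 3. The 3 cKO libraries other than replicate 4 exceeded most controls at day 3, and replicate 4 lay below all of them. The Bnip3 difference was 1.81 ± 0.32 (adjusted p = 0.0024), and 2.01 (adjusted p = 1.4e-05) without replicate 4. Of the oxygen-sensing genes, Egln3 (2.21, and 2.40 without replicate 4), a prolyl hydroxylase that HIF1A itself induces, rose in all 4 cKO day 3 libraries to 17, 17.6, 20.0 and 8.99 CPM from 5.43, 5.4 and 4.93 CPM. Hif1a differed by 1.12 (1.26 without replicate 4), and P4ha2, a collagen prolyl hydroxylase, by 0.87 (0.90). Epas1, which encodes HIF2A, was the opposite case: 8.32, 7.55, 10.7 and 49 CPM in cKO day 3 libraries gave -0.23 over 14 libraries (adjusted p = 0.88) and -1.32 without replicate 4 (adjusted p = 0.0099), where it was called lower.

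The 250 bases before the Slc16a3 and Bnip3 starts are shown because HIF binds the letters ACGTG and, less tightly, GCGTG. Capitals mark these letters on either strand (CACGT and CACGC on the printed strand for the reverse). Slc16a3 lies at chr11:120948817-120949066 on the plus strand and Bnip3 at chr7:138909507-138909756 on the minus strand.
Slc16a3: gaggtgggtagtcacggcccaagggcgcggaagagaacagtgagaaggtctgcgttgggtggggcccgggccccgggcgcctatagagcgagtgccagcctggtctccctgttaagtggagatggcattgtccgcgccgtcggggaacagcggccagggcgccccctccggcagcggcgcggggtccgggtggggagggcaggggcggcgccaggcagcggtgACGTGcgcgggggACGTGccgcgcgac
Bnip3: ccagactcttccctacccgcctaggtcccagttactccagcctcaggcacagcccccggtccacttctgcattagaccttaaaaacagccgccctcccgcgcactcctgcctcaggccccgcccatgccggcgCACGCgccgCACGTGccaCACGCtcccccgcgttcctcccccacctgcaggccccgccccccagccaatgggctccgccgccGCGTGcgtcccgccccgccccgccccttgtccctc
Slc16a3 held 2 matches, at 27 and 14 bases before the start, and Bnip3 held 5, at 117, 108, 107, 99 and 35 bases, those at 108 and 107 overlapping on opposite strands. Of all tested genes with a promoter in the table, 55.1% held a match, against 52.7% of the higher and 54.8% of the lower genes. Of the glycolysis genes that matched the table, 17 of 23 (73.9%) held one, and of the hypoxia genes 12 of 15 (80.0%). These shares are not weighted for the CG content of the promoters.

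Genes of oxidative phosphorylation were near 0 in their difference. Of 33 nuclear genes of oxidative phosphorylation, 0 were called higher and 0 lower (2 higher and 1 lower without replicate 4), and of 13 mitochondrially encoded genes 0 and 0 (0 higher and 0 lower). By edgeR at an unadjusted p under 0.05 they numbered 3 and 1, DESeq2 called 1 and 1, and limma voom called 1 and 0. Among all 14909 genes tested the counts were 4598 by unadjusted p, 3379 by DESeq2 and 2911 by limma voom. In the oxidative phosphorylation list the median difference was 0.02, and 0.05 over 13. Of 21 genes of the tricarboxylic acid cycle and pyruvate entry, 2 were higher and 2 lower over 14 libraries, against 9.94% and 6.89% of all genes tested. Pcx, pyruvate carboxylase, was among the lower ones and held its call under every alternative. Control levels of Pcx were 29.7, 28.7 and 31.6 CPM at day 0 and 48.9, 46.3, 44 and 46.7 CPM at day 3. Levels of Pcx in cKO cultures were 30.9, 29.8 and 29.8 CPM at day 0 and 31.3, 27.4, 29.4 and 20.4 CPM at day 3. Controls rose and the change in cKO cultures was not called. The Pcx difference was -0.78 ± 0.15 (adjusted p = 0.005), and -0.67 (adjusted p = 8.8e-05) without replicate 4. Of 20 genes of fatty acid oxidation, 3 were higher and 5 lower in each fit. The shares of all genes tested were 9.94% higher and 6.89% lower over 14 libraries, and 15.7% and 11.6% over 13. Acadl, the long-chain acyl-CoA dehydrogenase, stood at 63.6, 68.2, 65 and 78.6 CPM in cKO and 27.9, 28.6, 30.9 and 26.8 CPM in control cultures at day 3 and differed by 0.88 (adjusted p = 0.00026). The thiolase Acaa2 (-0.73), the hydroxyacyl-CoA dehydrogenase Hadh (-0.45) and Cpt1c (-0.66), a brain-type member of the carnitine palmitoyltransferase family, were lower. Cpt1a, the rate-limiting liver-type enzyme for entry of fatty acids into mitochondria, was higher in cKO cultures on both days (1.16 and 1.46), and its difference of 0.30 was not called (adjusted p = 0.44).

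Interferon-stimulated genes, which cells switch on after sensing viral or self nucleic acid, had a positive median difference. The number called depended on replicate 4 and on the tool. Of 22 tested, 4 were called higher and 0 lower over 14 libraries (background 9.94% and 6.89%), and 16 higher and 0 lower over 13 (background 15.7% and 11.6%), with a median of 1.79, and 2.12 without replicate 4. Over 14 libraries, 10 had an unadjusted p under 0.05 in edgeR, and DESeq2 called 12 and limma voom 6. Among all 14909 genes tested these counts were 4598, 3379 and 2911. For these genes the summed level ran from 56.5 to 62 CPM in control and 115 to 124 CPM in cKO cultures at day 0, and from 151 to 172 CPM in control and 978 to 1206 CPM in cKO cultures at day 3, with replicate 4 at 366 CPM. Ifi44 had the largest difference of those called in both fits. At day 0 Ifi44 stood at 1.68, 1.77 and 1.76 CPM in control and at 1.25, 1.31 and 1.01 CPM in cKO cultures. At day 3 Ifi44 stood at 5.07, 6.41, 3.96 and 6.73 CPM in control and at 54.9, 49.9, 56.4 and 7.9 CPM in cKO cultures. Replicate 4 was close to the control range and the other 3 cKO libraries far above it. The Ifi44 difference was 3.48 ± 0.72 (adjusted p = 0.0063), and 3.83 (adjusted p = 1.5e-07) without replicate 4. Dhx58, a helicase of the RNA-sensing family that includes RIG-I, went below the controls in replicate 4: 28, 23.8, 29.1 and 5.13 CPM in cKO against 5.76, 5.81, 5.88 and 6 CPM in control cultures at day 3, and 2.28, 2.46 and 2.44 against 4.33, 5.05 and 4.83 CPM at day 0. The Dhx58 difference was 2.86 ± 0.57 (adjusted p = 0.0052), and 3.18 (adjusted p = 1.0e-08) without replicate 4. Stat2, the signal transducer of type I interferon, was higher in all 4. Control levels of Stat2 were 6.51, 7.99 and 7.53 CPM at day 0 and 16.8, 17.9, 18 and 12.8 CPM at day 3. Levels of Stat2 in cKO cultures were 8.14, 7.83 and 8.07 CPM at day 0 and 90.5, 71.5, 77.9 and 33.5 CPM at day 3. The Stat2 difference was 1.93 ± 0.36 (adjusted p = 0.0033), and 2.16 (adjusted p = 1.5e-06) without replicate 4.

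Isg15, a ubiquitin-like modifier, shows a gene whose call differed between the fits with and without replicate 4. At day 0 Isg15 stood at 0.415, 0.38 and 0.393 CPM in control and at 3.03, 3.12 and 2.41 CPM in cKO cultures. At day 3 Isg15 stood at 2.26, 1.68, 1.98 and 2.24 CPM in control and at 104, 81.3, 92.9 and 18 CPM in cKO cultures. Its cKO cultures were above controls on both days without overlap, and the difference was 2.35 (adjusted p = 0.059) over 14 libraries and 2.68 (adjusted p = 7.6e-06) over 13. Irf7, the transcription factor that amplifies the response, gave 0.83 (adjusted p = 0.39) and 1.11 (adjusted p = 0.0071).

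Antigen presentation genes were counted next. Of 9 genes of the MHC class I pathway, 4 were higher and 0 lower in both fits (of all genes tested in both, 9.94% and 6.91%), and the median difference was only 0.09. The 4 were the heavy chains H2-K1 and H2-D1, their light chain B2m and Nlrc5, the transactivator of class I genes. At day 0 H2-K1 stood at 36.2, 39.8 and 44 CPM in control and at 49.7, 43.1 and 37.7 CPM in cKO cultures. At day 3 H2-K1 stood at 61, 51.4, 47.2 and 55.2 CPM in control and at 566, 476, 603 and 295 CPM in cKO cultures. Genotypes overlapped at day 0 and were apart at day 3 in every library. The H2-K1 difference was 3.05 ± 0.28 (adjusted p = 4.5e-05), and 3.23 (adjusted p = 4.5e-08) without replicate 4. Control levels of B2m were 88.5, 85.5 and 83.5 CPM at day 0 and 264, 249, 249.6 and 231 CPM at day 3. Levels of B2m in cKO cultures were 88, 91.1 and 88.6 CPM at day 0 and 931, 780.5, 975 and 664 CPM at day 3. Controls rose too, but less, and replicate 4 stayed above all of them. The B2m difference was 1.70 ± 0.15 (adjusted p = 4.5e-05), and 1.79 (adjusted p = 1.4e-07) without replicate 4. The peptide transporter and processing genes were not called. Tap1 was above controls in cKO cultures at day 0 (9.97, 9.16 and 8.4 against 3.91, 3.85 and 2.82 CPM) and at day 3 (66.7, 61.4, 65.2 and 30.7 against 30.6, 25.4, 27.4 and 25.7 CPM), and its difference was -0.34 (adjusted p = 0.51). For Nlrc5 the difference was 3.25 (3.30 without replicate 4), and for H2-D1 1.41 (1.55). H2-K1 and H2-D1 are close paralogs, between which reads can be split.

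Targets of p53, the transcription factor that halts the cell cycle after DNA damage, were more often lower than higher. Of 16, 0 were called higher and 9 lower over 14 libraries, and 12 lower over 13, against a background of 6.89% and 11.6% lower, with a median of -0.46, and -0.53 without replicate 4. The median genotype effect was 0.54 at day 0 and -0.01 at day 3. Cdkn1a, the cyclin-dependent kinase inhibitor p21, had a higher level in cKO cultures at day 0. At day 0 Cdkn1a stood at 126, 119 and 125 CPM in control and at 245, 234 and 263 CPM in cKO cultures. At day 3 Cdkn1a stood at 627, 524, 506 and 573 CPM in control and at 513, 522, 527 and 571 CPM in cKO cultures. Both genotypes rose, controls more, and at day 3 they overlapped. The Cdkn1a difference was -1.07 ± 0.11 (adjusted p = 0.0001), and -1.11 (adjusted p = 7.1e-06) without replicate 4. Eda2r, a death receptor of the ectodysplasin family, took the same course: 5.14, 4.06 and 4.41 CPM in control and 7.47, 7.97 and 9.49 CPM in cKO cultures at day 0, and 38.7, 28.6, 31.6 and 31.6 and 27.1, 29.9, 29.4 and 21.3 CPM at day 3, with a difference of -1.15 (adjusted p = 0.0023). Phlda3, an inhibitor of AKT, kept a smaller cKO excess at day 3 (effects 0.98 and 0.31) and differed by -0.67, and Ccng1, cyclin G1, differed by -0.70. Mdm2, the ubiquitin ligase that degrades p53, was called without replicate 4 (-0.39, adjusted p = 0.0021) and not over 14 libraries (-0.29, adjusted p = 0.12). Of the 23 alternatives, 3 called Mdm2. Of 23 genes of S phase and mitosis, 0 were higher and 1 lower (1 higher and 6 lower over 13). The shares of all genes tested were 9.94% higher and 6.89% lower over 14 libraries, and 15.7% and 11.6% over 13. Mki67, the proliferation marker, stood at 78.5, 48.5, 58.4 and 40.1 CPM in control and 68.2, 93.8, 93.1 and 24.2 CPM in cKO cultures at day 3, a difference of -0.23 (adjusted p = 0.8).

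On both days the median cartilage matrix gene was below controls in cKO cultures, and whether the gap was wider at day 3 depended on the gene and on replicate 4. Of 20, 0 were called higher and 2 lower over 14 libraries, which is near the background share of 6.89% for lower genes. Over 13, 3 were higher and 9 lower (background 15.7% and 11.6%). The median difference was -0.96, and -0.56 without replicate 4, from median genotype effects of -1.93 at day 0 and -2.99 at day 3 (-2.63 without it). For Col2a1, the main collagen of cartilage, whose levels are given with the marker check, the difference was -1.88 ± 0.84 (adjusted p = 0.15) and -1.50 (adjusted p = 0.00081) without replicate 4. With replicate 4 kept, limma voom called Col2a1 (-2.50, adjusted p = 0.032). Acan, the aggrecan core protein, gave -1.39 (adjusted p = 0.22) and -1.03 (adjusted p = 0.0064). Chad, chondroadherin, a leucine-rich protein that links collagen to cells, was called in both. At day 0 Chad stood at 36, 30.7 and 38.1 CPM in control and at 17.8, 18.2 and 29.5 CPM in cKO cultures. At day 3 Chad stood at 35, 30.6, 24.9 and 30.8 CPM in control and at 4.39, 3.8, 3.71 and 2.65 CPM in cKO cultures. Control levels stayed between 24.9 and 38.1 CPM and cKO levels were lower in all 4 day 3 libraries. The Chad difference was -2.38 ± 0.28 (adjusted p = 0.00021), and -2.26 (adjusted p = 4.6e-05) without replicate 4. Col11a1, the fibril-nucleating collagen, was the other, at -1.69 (adjusted p = 0.026) and -1.41. Col11a1 lost its call without control day 0 replicates 1, 2 and 3 and cKO day 0 replicate 2, one at a time (adjusted p up to 0.065). Of 8 transcription factors of chondrogenesis, 1 was lower, Nkx3-2 (-0.73, adjusted p = 0.012), with 0 higher and 4 lower over 13. Nkx3-2 lost its call under limma voom (adjusted p = 0.058). Sox9, the master regulator, stood at 225, 181, 213 and 34.2 CPM in cKO and 490.2, 462, 416 and 424 CPM in control cultures at day 3, against 177, 185 and 157 and 275, 285 and 286 CPM at day 0. Its difference was -0.75 (adjusted p = 0.42), and -0.41 (adjusted p = 0.02) without replicate 4.

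Genes of late chondrocytes and of mineralization had members among the positive differences. Of 13 hypertrophic genes 3 were higher and 0 lower (5 higher and 0 lower without replicate 4), and of 12 mineralization genes 3 and 0 (3 higher and 2 lower), where 9.94% of all genes tested were higher and 6.89% lower over 14 libraries, and 15.7% and 11.6% over 13. Alpl is the alkaline phosphatase that frees phosphate for mineral. At day 0 Alpl stood at 31.9, 37.9 and 41.3 CPM in control and at 44.9, 21.4 and 15.2 CPM in cKO cultures. At day 3 Alpl stood at 49.3, 28.5, 40.5 and 67.5 CPM in control and at 254, 383, 272 and 428 CPM in cKO cultures. The day 0 groups overlapped and all 4 cKO day 3 libraries lay above every other library. The Alpl difference was 3.30 ± 0.50 (adjusted p = 0.001), and 3.17 (adjusted p = 0.0003) without replicate 4. Spp1, osteopontin, a phosphoprotein of mineralizing matrix, had the highest level of these. Control levels of Spp1 were 148, 135 and 130.3 CPM at day 0 and 304, 161, 403 and 202 CPM at day 3. Levels of Spp1 in cKO cultures were 385, 204 and 226 CPM at day 0 and 3728, 3354, 3058 and 2075 CPM at day 3. Replicate 4 was lowest of the 4 and still above every control. The Spp1 difference was 2.53 ± 0.44 (adjusted p = 0.0022), and 2.68 (adjusted p = 0.00027) without replicate 4. Mmp13, the collagenase of hypertrophic cartilage, and Ibsp, bone sialoprotein, varied more between cKO cultures at day 0, where Ibsp was 15.9, 1.19 and 0.407 CPM and Mmp13 59.1, 11.2 and 4.95 CPM. Their differences were 3.23 (adjusted p = 0.031) and 4.20 (adjusted p = 0.047). Mmp13 lost its call without any single library other than cKO day 0 replicates 1 and 3, control day 3 replicates 1 and 3 and cKO day 3 replicates 1, 3 and 4 (adjusted p up to 0.081). The call of Ibsp was lost without any single library other than cKO day 0 replicate 1 and cKO day 3 replicate 4 (adjusted p up to 0.11). It was also lost under library totals only, edgeR robust and a replicate block (adjusted p up to 0.068). Col10a1, the collagen that defines hypertrophy, had a difference whose size depended on replicate 4: 56.1, 101, 68.9 and 1392 CPM in cKO and 77.9, 24.6, 40.2 and 28.8 CPM in control cultures at day 3, after 588, 725 and 772 and 1219, 1179 and 1182 CPM at day 0. Its difference was 4.02 (adjusted p = 0.057) with and 1.60 (adjusted p = 0.015) without that library. With replicate 4 kept, it was called by limma voom (2.80, adjusted p = 0.040). It was also called without cKO day 3 replicate 1, 2 or 3, left out in turn (adjusted p = 0.031, 0.045 and 0.034). Ihh, the hedgehog ligand of prehypertrophic cells, was lower in cKO cultures by -2.57 at day 0 and -2.89 at day 3, with a difference of -0.32 (adjusted p = 0.65).

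The BMP pathway itself was taken by role. Of 12 ligands 0 were higher and 0 lower (0 higher and 1 lower over 13), of 11 receptors and SMADs 1 and 1 (1 higher and 3 lower), and of 16 targets and feedback inhibitors 4 and 2 (6 higher and 2 lower), where 9.94% of all genes tested were higher and 6.89% lower over 14 libraries, and 15.7% and 11.6% over 13. Of the ligands, 4 had an unadjusted p under 0.05 in edgeR, and DESeq2 called 1 and limma voom 0. Among all 14909 genes tested these counts were 4598, 3379 and 2911. The receptor was Acvr1, a type I receptor, at 77.6, 77.5, 73.8 and 82.5 CPM in cKO and 45.1, 45.7, 50.6 and 41.4 CPM in control cultures at day 3 and a difference of 0.52 (adjusted p = 0.0045). Smad6, the inhibitory SMAD, was 34.5, 35.8 and 37.6 and 59.5, 57.8 and 65.8 CPM at day 0 and 38.4, 30.0, 32.4 and 28.7 and 86.2, 104, 94.9 and 115 CPM at day 3 in control and cKO cultures, in that order, and differed by 0.87 (adjusted p = 0.0025). The direct target Id3 differed by 0.81 (adjusted p = 0.0026), whereas Id1, another direct target, gave -0.14 (adjusted p = 0.68). Bambi, a pseudoreceptor, was at 11.1, 11.5 and 11.3 CPM in cKO cultures at day 0, below every control (22.4, 21.3 and 23 CPM), and at day 3 overlapped them (26.8, 29, 22 and 34.9 against 35.9, 16.6, 18.7 and 23.3 CPM), a difference of 1.23 (adjusted p = 0.016). Nog, noggin, a secreted antagonist, went the other way, at 22.4, 29, 26.5 and 40.4 CPM in cKO against 126, 89.9, 65.6 and 101 CPM in control cultures at day 3 and 41.5, 46.7 and 51.5 against 63.7, 74.3 and 76.2 CPM at day 0. The Nog difference was -1.07 ± 0.29 (adjusted p = 0.026), and -1.26 (adjusted p = 0.0021) without replicate 4. Nog lost its call without control day 0 replicates 1 and 2 and cKO day 0 replicates 2 and 3, one at a time (adjusted p up to 0.07).

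Lists of other signalling pathways were counted in the same way. Of 11 WNT antagonists and targets 3 were higher and 0 lower (3 higher and 2 lower over 13), of 9 hedgehog and PTHrP genes 0 and 1 (0 higher and 1 lower), and of 10 FGF signalling genes 1 and 0 (1 higher and 0 lower), where 9.94% of all genes tested were higher and 6.89% lower over 14 libraries, and 15.7% and 11.6% over 13. The 3 WNT genes were secreted: Dkk3, a Dickkopf family member, Notum, which removes the lipid from WNT proteins, and Wif1, a WNT-binding inhibitor. At day 0 Dkk3 stood at 25.1, 29.1 and 21.5 CPM in control and at 22.9, 27.5 and 11 CPM in cKO cultures. At day 3 Dkk3 stood at 97.2, 158, 234 and 98.8 CPM in control and at 781, 769.5, 729.8 and 682 CPM in cKO cultures. All 4 cKO day 3 libraries, replicate 4 included, lay above every control. The Dkk3 difference was 2.64 ± 0.45 (adjusted p = 0.0022), and 2.68 (adjusted p = 0.0007) without replicate 4. Notum gave 1.66 (adjusted p = 0.015) and Wif1 1.64 (adjusted p = 0.02). Wif1 lost its call without control day 0 replicate 3 and cKO day 0 replicate 3, one at a time (adjusted p up to 0.057). The hedgehog gene was the receptor Ptch1, at -0.55 (adjusted p = 0.04), and the FGF gene the feedback inhibitor Spry1, at 1.69 (adjusted p = 0.006). Ptch1 lost its call without any single library other than control day 3 replicates 1 and 2 and cKO day 3 replicate 4 (adjusted p up to 0.099) and under no filter on low counts (adjusted p = 0.057). The call of Spry1 was lost under limma voom (adjusted p = 0.11).

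Among 14 genes of the DNA methylation machinery, 2 were higher and 3 lower (3 higher and 3 lower over 13), where 9.94% of all genes tested were higher and 6.89% lower over 14 libraries, and 15.7% and 11.6% over 13. Tet1, which oxidises methylcytosine, was the strongest of the lower ones. At day 0 Tet1 stood at 8.89, 10.9 and 11.4 CPM in control and at 4.59, 5.21 and 4.95 CPM in cKO cultures. At day 3 Tet1 stood at 16.6, 26.4, 26.1 and 26.1 CPM in control and at 3.83, 2.96, 3.08 and 1.61 CPM in cKO cultures. Controls rose and cKO cultures fell, and the genotype effect went from -1.08 to -3.05. The Tet1 difference was -1.97 ± 0.31 (adjusted p = 0.0014), and -1.78 (adjusted p = 0.00014) without replicate 4. Dnmt3a, a de novo methyltransferase, overlapped between genotypes at day 0 (98.9, 101 and 90.7 and 96.1, 99.1 and 95.2 CPM) and was lower in every cKO library at day 3 (74.4, 93.9, 107 and 90.9 and 50.9, 49.8, 48.1 and 64.1 CPM). The Dnmt3a difference was -0.78 ± 0.16 (adjusted p = 0.0063), and -0.88 (adjusted p = 0.00025) without replicate 4. Dnmt3l, the catalytically inactive partner of the germline, had the reverse pattern at a low level. Control levels of Dnmt3l were 0.546, 0.465 and 0.462 CPM at day 0 and 0, 0.0543, 0 and 0 CPM at day 3. Levels of Dnmt3l in cKO cultures were 0.841, 0.804 and 0.912 CPM at day 0 and 2.25, 1.93, 1.83 and 2.83 CPM at day 3. All control libraries at day 3 were at the floor, against which the cKO level was at least 11.8-fold higher.

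Germline genes, whose promoters are a textbook target of silencing by DNA methylation, were mostly present in cKO and near 0 in control cultures on both days, and the interaction passed few of them. Of 20, 1 was higher and 2 were lower in each fit, against background shares of 9.94% and 6.89% over 14 libraries. The median difference was 0.15, and -1.20 with members set to the floor where a group was at or under it, so its sign depends on how values near 0 are treated. The day 3 libraries are shallower, and a control level at the floor is a higher CPM there. Mov10l1, a helicase of the piRNA pathway, was the higher one. At day 0 Mov10l1 stood at 0.0437, 0.0634 and 0.0462 CPM in control and at 12.6, 10.9 and 10.8 CPM in cKO cultures. At day 3 Mov10l1 stood at 0, 0, 0 and 0 CPM in control and at 33.9, 38.1, 35 and 33.2 CPM in cKO cultures. Both control groups were at or under 3 counts in every library. Its cKO level at day 3 was at least 188-fold above that floor in controls. At day 0 the cKO level was also far above the control floor. That floor was 0.0634 to 0.0693 CPM at day 0 and 0.163 to 0.206 CPM at day 3. The day 3 bound therefore does not show that the ratio differed between the days, and the fitted call depends on the prior count. Brdt, a testis bromodomain protein, was lower. Control levels of Brdt were 2.14, 3.19 and 2.38 CPM at day 0 and 5.96, 5.7, 4.5 and 5.54 CPM at day 3. Levels of Brdt in cKO cultures were 7.54, 6.91 and 5.96 CPM at day 0 and 5.51, 7.31, 6.52 and 6.17 CPM at day 3. The cKO excess at day 0 was not seen at day 3, where the groups overlapped. The Brdt difference was -1.17 ± 0.23 (adjusted p = 0.0046), and -1.15 (adjusted p = 0.0024) without replicate 4. Morc1, a germline silencer of retrotransposons outside that list, had the smallest adjusted p of the named genes with a group at the floor, for which a fitted difference depends on the prior count and is no bound. At day 0 Morc1 stood at 0.153, 0.127 and 0.116 CPM in control and at 4.52, 4.46 and 4.54 CPM in cKO cultures. At day 3 Morc1 stood at 0, 0, 0 and 0 CPM in control and at 20.1, 24.1, 22.3 and 20.2 CPM in cKO cultures. The Morc1 difference was 7.27 ± 0.51 (adjusted p = 4.5e-05), and 7.35 (adjusted p = 3.2e-05) without replicate 4. The cKO day 3 level was at least 116-fold higher than in day 3 controls, where every library had 0 counts. Morc1 was already above controls in cKO cultures at day 0, so this bound on the day 3 ratio is no bound on the difference.

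Imprinted genes, expressed from 1 parental allele under methylated control regions, gave 1 of 17 higher and 5 lower (2 higher and 8 lower over 13), where 9.94% of all genes tested were higher and 6.89% lower over 14 libraries, and 15.7% and 11.6% over 13. Peg10, a retrotransposon-derived gene, was far above controls in cKO cultures at day 0. At day 0 Peg10 stood at 342, 352 and 364 CPM in control and at 2845, 2469 and 2754 CPM in cKO cultures. At day 3 Peg10 stood at 716, 631, 611 and 549.8 CPM in control and at 1226, 1341, 1313 and 402 CPM in cKO cultures. Levels rose in controls and fell in cKO cultures, replicate 4 below the controls and the other 3 above. The Peg10 difference was -2.16 ± 0.42 (adjusted p = 0.0046), and -1.88 (adjusted p = 4.4e-07) without replicate 4. Peg3, a zinc finger protein, and Plagl1, another, were lower in cKO at day 3 without overlap: Peg3 at 751, 672, 816 and 297 against 3061, 4343, 3792 and 3653 CPM, and Plagl1 at 525, 443, 527 and 373 against 1654, 1525, 1680 and 1251 CPM. Peg3 differed by -1.59 (adjusted p = 0.01) and Plagl1 by -1.38 (adjusted p = 0.00051). Ndn, necdin, was the higher one, at 0.63 (adjusted p = 0.0028).

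**Figure D3:**
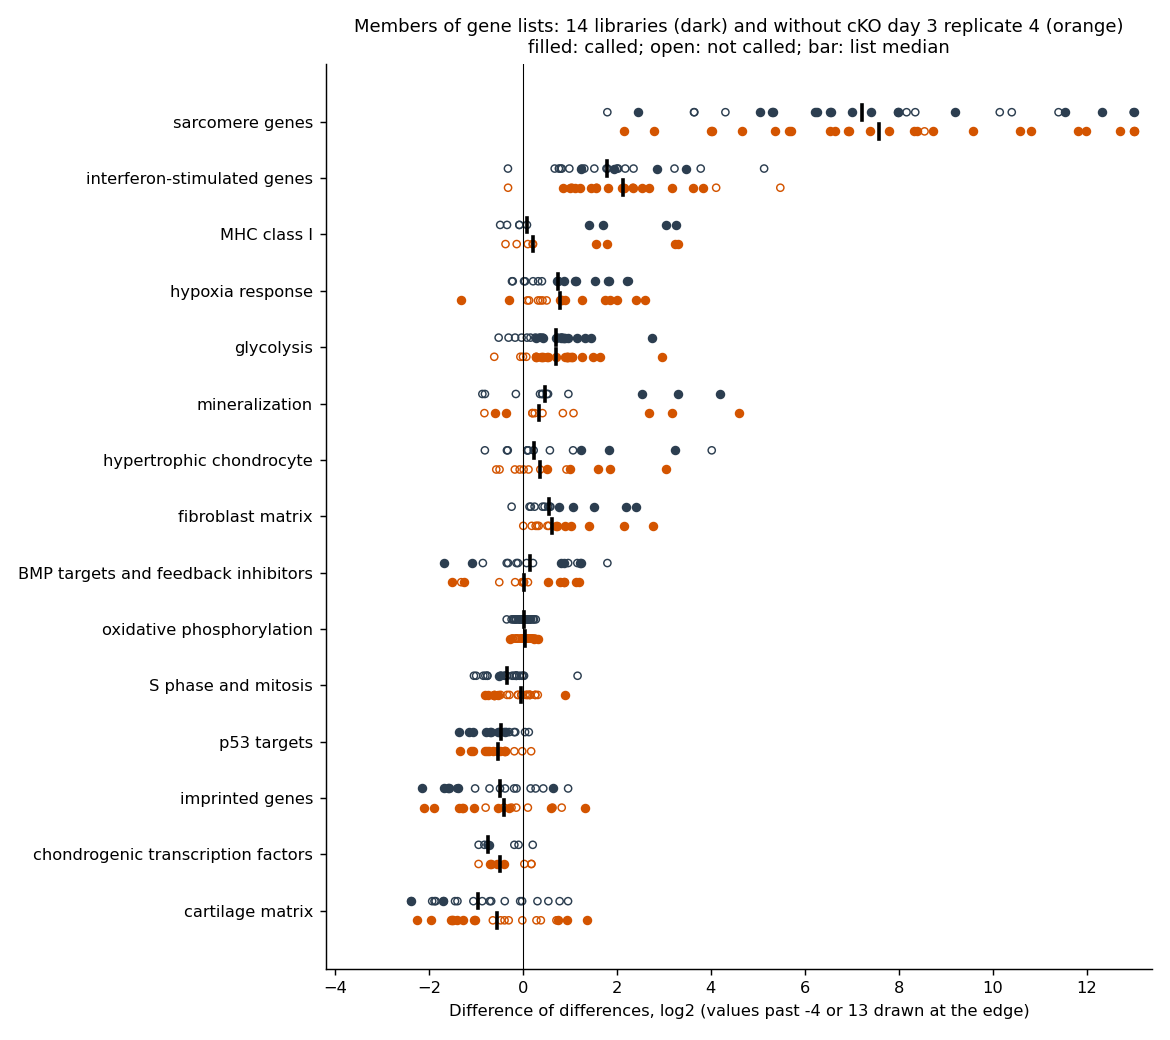
Difference of differences (log2) of each tested member of 15 gene lists, 1 row per list, dark for 14 libraries and orange without cKO day 3 replicate 4, filled where called, with a bar at the median and values past the axis limits drawn at the edge. Sarcomere genes have the highest median of these lists, and p53 targets a median below 0.

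Outside cartilage matrix, collagens of fibrous tissue were among the positive differences. Of 14 fibroblast matrix genes 5 were higher and 0 lower (7 higher and 0 lower over 13), where 9.94% of all genes tested were higher and 6.89% lower over 14 libraries, and 15.7% and 11.6% over 13. Col1a1, the main collagen of bone and fibrous tissue, crossed over. At day 0 Col1a1 stood at 2789, 2348 and 1567 CPM in control and at 1484, 1327 and 1172 CPM in cKO cultures. At day 3 Col1a1 stood at 4994, 4153, 4266 and 3609 CPM in control and at 6560, 7077, 6460 and 8552 CPM in cKO cultures. Its cKO libraries were below all controls at day 0 and above all of them at day 3. The Col1a1 difference was 1.50 ± 0.26 (adjusted p = 0.0025), and 1.41 (adjusted p = 0.00082) without replicate 4. Col1a2 gave 1.06 (adjusted p = 0.012) and Postn, periostin, 2.19 (adjusted p = 0.0068). Of 15 matrix proteases and inhibitors 3 were higher and 1 lower (5 higher and 2 lower), to be read against the same shares. Adamts1, a protease that cuts aggrecan and versican, stood at 21.9, 26.8, 28.4 and 20.7 CPM in control and 56.2, 91.6, 72.5 and 122 CPM in cKO cultures at day 3, after 162, 156 and 147 and 101, 116 and 112 CPM at day 0, a difference of 2.30 (adjusted p = 0.00032). Mmp2, a gelatinase, was lower, at -0.64 (adjusted p = 0.0076). Of 9 genes of the insulin-like growth factor axis 2 were higher and 1 lower (2 higher and 1 lower), the higher ones being the binding proteins Igfbp4 (1.43) and Igfbp6 (1.17). Endoplasmic reticulum stress genes gave 1 of 16 higher and 3 lower (2 higher and 3 lower), with Chac1, a glutathione-degrading enzyme of that response, at -0.74 (adjusted p = 0.011). Of 2 Serpina3 family genes tested, 0 were called over 14 libraries and 1 was higher over 13. Both had an unadjusted p under 0.05 in edgeR, and DESeq2 and limma voom called 0 and 0. Among all 14909 genes tested these counts were 4598, 3379 and 2911.

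The 12 largest negative differences, ranked over the same kind of genes, were sorted into 2 kinds, which overlap where controls also rose, as for Cldn1 and Dlx1. In the first, cKO cultures were above controls at day 0, and less so or not at all at day 3. Cldn1, a tight junction protein, is an example. At day 0 Cldn1 stood at 0.524, 0.549 and 0.554 CPM in control and at 5.65, 4.46 and 5.14 CPM in cKO cultures. At day 3 Cldn1 stood at 1.17, 1.85, 3.18 and 1.25 CPM in control and at 0.9, 0.839, 0.991 and 2.19 CPM in cKO cultures. The Cldn1 difference was -3.83 ± 0.53 (adjusted p = 0.0006), and -4.26 (adjusted p = 1.1e-05) without replicate 4. The homeobox gene Dlx1 (-3.69) had such a course: controls went from 0.131, 0.148 and 0.139 to 8.91, 3.42, 3.3 and 2.64 CPM while cKO cultures held 2.35, 1.38 and 3.18 and then 5.01, 6.17, 4.8 and 6.69 CPM. P-cadherin, Cdh3 (-2.81), and the caveolar coat protein Cavin2 (-2.44) were also higher in cKO cultures at day 0 (effects 2.53 and 3.23). The renal dipeptidase Dpep1 (-3.56) was above controls on both days, by 8.16 at day 0 and 4.60 at day 3. In the other kind, controls rose and cKO cultures rose less, fell or were not called. Irx1, an Iroquois transcription factor, is the plainest. Control levels of Irx1 were 0.371, 0.402 and 0.37 CPM at day 0 and 7.68, 9.34, 7.99 and 5.93 CPM at day 3. Levels of Irx1 in cKO cultures were 0.529, 0.436 and 0.524 CPM at day 0 and 2.08, 1.14, 0.835 and 1.27 CPM at day 3. No cKO day 3 library overlapped a control. The Irx1 difference was -2.92 ± 0.38 (adjusted p = 0.00044), and -2.91 (adjusted p = 0.00019) without replicate 4. The potassium channel Kcnd2 (-2.69) and the metalloreductase Steap4 (-3.47) gave day 3 effects of -2.79 and -2.29. Tslp, an epithelial cytokine (-3.19), was of the first kind, at 7.21, 5.56 and 9.84 CPM in cKO and 1.05, 0.74 and 0.785 CPM in control cultures at day 0 and under 0.5 CPM in all day 3 libraries. It and Pcdhgc4 (-3.98), of the gamma protocadherin cluster, whose members share exons so that reads can be split, complete the 12 with Cd34 and Lrrn3. Tslp lost its call under limma voom (adjusted p = 0.072). The call of Pcdhgc4 was lost without any single library other than control day 3 replicates 1, 2, 3 and 4 and cKO day 3 replicates 1, 2 and 4 (adjusted p up to 0.082) and under limma voom and thinning to one depth (adjusted p up to 0.26).

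Genes whose genotype effect was called in opposite directions on the 2 days numbered 123 higher and 97 lower. Fam167a had the smallest standard error of the higher ones named here. At day 0 Fam167a stood at 4.94, 4.65 and 5.08 CPM in control and at 1.68, 2.32 and 1.88 CPM in cKO cultures. At day 3 Fam167a stood at 2.67, 2.33, 3.6 and 2.11 CPM in control and at 17.3, 18.8, 14.8 and 13.7 CPM in cKO cultures. All cKO libraries were below controls at day 0 and above them at day 3. The Fam167a difference was 3.90 ± 0.25 (adjusted p = 5.4e-06), and 3.97 (adjusted p = 1.5e-07) without replicate 4. Fos, an immediate early transcription factor of AP-1, did so while its level dropped in both genotypes. Control levels of Fos were 90.0, 87.7 and 78.9 CPM at day 0 and 2.19, 1.9, 5.34 and 2.04 CPM at day 3. Levels of Fos in cKO cultures were 33.9, 29.5 and 25.8 CPM at day 0 and 7.26, 8.59, 7.62 and 7.38 CPM at day 3. The Fos difference was 2.95 ± 0.35 (adjusted p = 0.00023), and 2.97 (adjusted p = 2.2e-05) without replicate 4. Fap, a fibroblast surface protease (2.69), F5, coagulation factor V (2.91), Clec14a, an endothelial lectin (2.46), and Tnfsf11, the osteoclast differentiation factor RANKL (3.24), made up the higher genes named by the rule. For Tnfsf11 replicate 4, at 0.173 CPM, was below the controls, and the other 3 were above them. Of the lower ones, Lrrn3, a leucine-rich repeat membrane protein, had the largest difference of those named here. At day 0 Lrrn3 stood at 1.14, 1.18 and 1.06 CPM in control and at 2.83, 3.17 and 3.92 CPM in cKO cultures. At day 3 Lrrn3 stood at 38, 57, 72.5 and 42.5 CPM in control and at 8.72, 13.7, 16.9 and 4.55 CPM in cKO cultures. The Lrrn3 difference was -3.81 ± 0.52 (adjusted p = 0.00057), and -3.55 (adjusted p = 2.3e-05) without replicate 4. Cd34 (-3.76), a sialomucin of progenitor and endothelial cells, elastin (Eln, -2.36), Rapgef5 (-2.55), a guanine nucleotide exchange factor, Efemp1 (-1.74), a fibulin, and Lama3 (-2.15), a laminin chain, were the others.

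Of genes with a group at the floor, Kcnc4 (6.15), a potassium channel, 3425401B19Rik (3.57) and Fcer1g (4.36), the signalling chain of Fc receptors, joined Morc1 as the 4 higher genes with the smallest adjusted p among those with a mean log2 CPM of 1 or more. Their cKO day 3 levels were at least 39.8, 18.1 and 42.4 times the control floor. Trim5 and Gm11427 were the 2 such genes that were lower. Control levels of Trim5 were 0.0437, 0.0211 and 0.0462 CPM at day 0 and 0.411, 0.217, 0.12 and 0.462 CPM at day 3. Levels of Trim5 in cKO cultures were 18.8, 19.15 and 18.4 CPM at day 0 and 25.8, 24.2, 21.1 and 32.9 CPM at day 3. Trim5, of a family of antiviral ubiquitin ligases, was near 0 in controls on both days, so that its fitted value depends on how such counts are treated, and its difference was -2.40 (adjusted p = 0.0099), while Gm11427 gave -2.81 (adjusted p = 0.04). Fcer1g lost its call under thinning to one depth (adjusted p = 0.4). The call of Gm11427 was lost without any single library other than control day 3 replicates 1, 2 and 3 and cKO day 3 replicate 4 (adjusted p up to 0.12). It was also lost under limma voom, thinning and a replicate block (adjusted p up to 0.2).

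**Figure D4:**
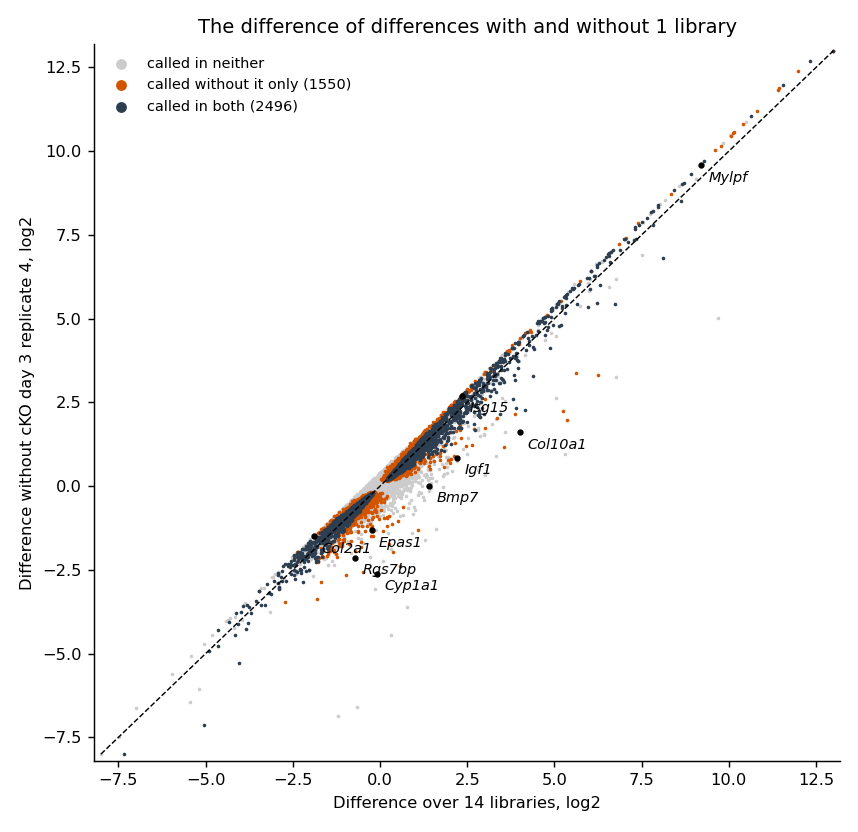
Difference of differences (log2) over 14 libraries on the x axis against that without cKO day 3 replicate 4 on the y axis, 1 point per gene tested in both. The 2496 genes called in both fits and the 1550 called only without that library are coloured apart, and genes off the diagonal, such as Col10a1, Igf1 and Epas1, are those whose value that library moved most.

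The genes called by edgeR without replicate 4, and not by edgeR over 14 libraries, included more muscle genes. The 4 largest were Myom3 (6.11), a protein of the sarcomere M band, Pdlim3 (4.60), of the Z disc, Atp2a1 (4.48), the calcium pump of fast muscle, and Klhl40 (4.42), a regulator of thin filament proteins, with 14-library values of 5.73, 4.23, 4.10 and 4.02. At day 0 Atp2a1 stood at 0.437, 0.465 and 0.439 CPM in control and at 4.06, 4.25 and 5.84 CPM in cKO cultures. At day 3 Atp2a1 stood at 0.0685, 0.217, 0.54 and 0.527 CPM in control and at 64.7, 79.8, 97.4 and 5.3 CPM in cKO cultures. Even replicate 4 lay above every control library. With replicate 4 kept, Atp2a1 was called by DESeq2 (adjusted p = 0.0019) and by edgeR with a replicate block (adjusted p = 0.0082). Of the 23 alternatives, Myom3 was called in 5, and Pdlim3, Atp2a1 and Klhl40 in 3 each. The 4 lowest were Cyp1a1, AU018091, Rgs7bp and Zfp575. Cyp1a1, the cytochrome induced through the aryl hydrocarbon receptor, stood at 0.281, 0.395, 0.626 and 9.05 CPM in cKO and 0.411, 0.272, 0.36 and 0.264 CPM in control cultures at day 3, after 5.31, 6.2 and 8.77 and 1.22, 0.528 and 0.716 CPM at day 0. It gave -0.07 (adjusted p = 0.99) with replicate 4 and -2.61 (adjusted p = 0.0055) without it. Rgs7bp, which tethers RGS proteins to the membrane, gave -0.72 and -2.14, AU018091 -1.77 and -2.26, and the zinc finger gene Zfp575 -1.63 and -2.11. Zfp575 was called in 3 of the 23 alternatives, and Cyp1a1, AU018091 and Rgs7bp in 1 each. Of the genes called over 14 libraries, 5 lost the call without replicate 4 and 8 were not tested over 13. Igf1 was also far higher in replicate 4, at 21.4, 20.7, 16.4 and 145 CPM in cKO day 3 libraries, and was called in neither fit (adjusted p = 0.17 and 0.16).

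Markers of other cells that a knee cartilage culture could hold were read the same way. Of 7 macrophage and osteoclast genes tested 3 were higher and 0 lower (4 higher and 0 lower over 13), of 6 endothelial and pericyte genes 1 and 2 (2 higher and 2 lower), of 9 tendon and joint surface genes 1 and 1 (5 higher and 1 lower), of 7 adipocyte genes 1 and 0 (2 higher and 1 lower), and of 3 Schwann cell genes 1 and 0 (1 higher and 0 lower), where 9.94% of all genes tested were higher and 6.89% lower over 14 libraries, and 15.7% and 11.6% over 13. The defining markers were scarce: Adgre1 and Emcn never exceeded 3 counts, Cdh5 reached 4, Tyrobp 6, Kdr and Sox10 11, Adipoq 29 and Ptprc 42 counts in any library. For macrophage and osteoclast genes the summed level ran from 168 to 174 CPM in control and 81.6 to 97 CPM in cKO cultures at day 0, and from 116 to 145 CPM in control and 116 to 132 CPM in cKO cultures at day 3, with replicate 4 at 379 CPM. For endothelial and pericyte genes the summed level ran from 788 to 811 CPM in control and 472 to 501 CPM in cKO cultures at day 0, and from 511 to 632 CPM in control and 134 to 153 CPM in cKO cultures at day 3, with replicate 4 at 249 CPM. For adipocyte genes the summed level ran from 76.6 to 85.8 CPM in control and 71.9 to 91.6 CPM in cKO cultures at day 0, and from 128 to 146 CPM in control and 158 to 204 CPM in cKO cultures at day 3, with replicate 4 at 220.1 CPM. For tendon genes the summed level ran from 199.6 to 218 CPM in control and 184 to 199 CPM in cKO cultures at day 0, and from 78.7 to 135 CPM in control and 172 to 203 CPM in cKO cultures at day 3, with replicate 4 at 254 CPM. For Schwann cell genes the summed level ran from 10.4 to 11.1 CPM in control and 9.68 to 12.8 CPM in cKO cultures at day 0, and from 6.13 to 8.71 CPM in control and 9.11 to 9.6 CPM in cKO cultures at day 3, with replicate 4 at 3.98 CPM. For fibroblast matrix genes the summed level ran from 32279 to 34147 CPM in control and 32515 to 36765 CPM in cKO cultures at day 0, and from 29204 to 35999 CPM in control and 50624 to 51225 CPM in cKO cultures at day 3, with replicate 4 at 45473 CPM. Cd68, a lysosomal protein of macrophages that other cells also express, was 0.548, 0.543, 0.601 and 0.594 CPM in control and 4.16, 3.36, 3.91 and 7.96 CPM in cKO cultures at day 3, after 1.18, 1.23 and 0.924 and 2.71, 2.23 and 2.41 CPM at day 0. The Cd68 difference was 1.94 ± 0.40 (adjusted p = 0.006), and 1.59 (adjusted p = 0.00048) without replicate 4. Scx, the tendon transcription factor, gave 1.42 (adjusted p = 0.0072) with 16.6, 18.7, 17.3 and 33.1 CPM in cKO and 3.7, 3.42, 4.26 and 2.97 CPM in control cultures at day 3, while Mkx, another, gave -1.48 (adjusted p = 0.0056). Fabp4, a fatty acid carrier of adipocytes and endothelium, gave 2.29, the pericyte proteoglycan Cspg4, which chondrocytes also make, -1.08, the angiopoietin receptor Tek -3.28, and Abcc9, a potassium channel subunit of pericytes and muscle, 3.42. Fabp4 was the 1 adipocyte gene called over 14 libraries. The median difference of the 7 adipocyte genes was -0.39, and -0.53 without replicate 4, opposite in sign to Fabp4. The part that a changed mix of cells plays in the differences above was not tested.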

How the data were processed

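RNA-seq of 14 culture libraries was used, and 8 cartilage samples of the series were not analysed here. The authors deposited estimated counts per gene, 1 table for each day. The libraries were stranded, per the labels' protocols, and the build was GRCm38, per the submitters' processing notes. The aligner, the counter and whether counting used strand are not given in the sources used here. A share of 23.5% of these values were not whole, so the estimated counts were rounded. The tables were joined by identifier, and 34582 of 34866 identifiers matched a gene symbol.

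Genes were kept by filterByExpr (at least 10 counts) and fitted with edgeR 4.0.16 (R 4.3.3), with TMM scaling, a quasi-likelihood test of the interaction contrast over 4 groups, with p-values adjusted after Benjamini and Hochberg across every gene fitted, called at an adjusted p under 0.05. All adjusted p-values in the text come from that test unless another tool is named, and values after ± are standard errors on the log2 scale. The fit was checked on simulated data with known changes. Genes were named by rank among those called in both fits and with mean log2 CPM no lower than 1: the 12 highest and 12 lowest by the smaller of the 2 differences, up to 4 each way with a group at or under 3 counts in every library, 6 each way with opposite effects on the 2 days, 4 each way called in 1 fit only, Dnmt1, and members of 35 gene lists. The lists and the comparison were chosen with earlier results of these data known. Alternatives were other scaling, DESeq2 1.42.0, limma 3.58.1 voom with group weights, robust spread, no filter, thinning, a replicate block, leaving out each library and, chosen after seeing the data, a term for libraries with Ddx3y transcript. Promoters are from RefSeq, GRCm38.p6. A gene of the lists is not reported here and was left out of its list.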

Additional observations from a re-analysis of the deposited data

Results flagged for a closer look

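The genotype effect differed between day 0 and day 3, by the test of the difference itself, for 2509 genes over 14 libraries, 4051 without cKO day 3 replicate 4, and 2496 in both fits. The log2 differences over 14 libraries of the genes chosen by rank were, for those higher, Mylpf (9.20), Mymk (8.43), Mybph (7.98), Smyd1 (7.50), Acta1 (7.41), Chrna1 (7.02), Hrc (6.63), Tnni2 (6.56), Myl4 (6.54), Tnnt3 (6.26), Ttn (6.21) and Casq1 (6.05). For the higher genes with a group at the floor or with opposite effects on the 2 days they were Morc1 (7.27), Kcnc4 (6.15), 3425401B19Rik (3.57), Fcer1g (4.36), F5 (2.91), Fos (2.95), Tnfsf11 (3.24), Fam167a (3.90), Fap (2.69) and Clec14a (2.46). Where a group was at the floor, the fitted value depends on the prior count and is no bound. Lower genes were Cldn1 (-3.83), Pcdhgc4 (-3.98), Dlx1 (-3.69), Cd34 (-3.76), Lrrn3 (-3.81), Dpep1 (-3.56), Tslp (-3.19), Steap4 (-3.47), Irx1 (-2.92), Kcnd2 (-2.69), Cdh3 (-2.81) and Cavin2 (-2.44), followed by Trim5 (-2.40), Gm11427 (-2.81), Eln (-2.36), Rapgef5 (-2.55), Efemp1 (-1.74) and Lama3 (-2.15).

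Within the day 3 groups of 4 libraries, 27 of 276 gene and group pairs had a library far from the other 3. A rate of 1 in 20 would give about 13.8, but that rate is for genes not picked by their values. Only genes named in this text were looked at, some of them named because replicate 4 changed their call. The count therefore cannot be set against chance. In cKO day 3 the library apart was replicate 4 in all 17 cases. It was higher for Cavin2 at 102 CPM (others 47.2 to 50.0 CPM), Ccng1 at 511 CPM (others 391 to 399 CPM), Cldn1 at 2.19 CPM (others 0.839 to 0.991 CPM), Col10a1 at 1392 CPM (others 56.1 to 101 CPM) and Cyp1a1 at 9.05 CPM (others 0.281 to 0.626 CPM). Also higher there were Epas1 at 49 CPM (others 7.55 to 10.7 CPM), F5 at 25.7 CPM (others 10.4 to 11.6 CPM), Igf1 at 145 CPM (others 16.4 to 21.4 CPM), Rgs7bp at 8.82 CPM (others 0.844 to 1.46 CPM) and Scx at 33.1 CPM (others 16.6 to 18.7 CPM). It was lower for Cdh3 at 3.86 CPM (others 11.7 to 12.8 CPM), Clec14a at 9.11 CPM (others 24.3 to 25.8 CPM), Ifi44 at 7.9 CPM (others 49.9 to 56.4 CPM), Ihh at 0.461 CPM (others 1.28 to 1.35 CPM) and Irf7 at 9.8 CPM (others 32.2 to 34.4 CPM). Also lower there were Peg10 at 402 CPM (others 1226 to 1341 CPM) and Tap1 at 30.7 CPM (others 61.4 to 66.7 CPM).

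In control day 3, replicate 1 stood apart for Cdh3 at 7.47 CPM (others 13.6 to 14.1 CPM), Dlx1 at 8.91 CPM (others 2.64 to 3.42 CPM), F5 at 7.33 CPM (others 4.55 to 4.86 CPM), Fcer1g at 0.137 CPM (others 0.0543 to 0.0659 CPM), Id3 at 128 CPM (others 95.3 to 100.3 CPM), Notum at 4.8 CPM (others 1.78 to 2.28 CPM) and Tet1 at 16.6 CPM (others 26.1 to 26.4 CPM). The other cases were control day 3 replicate 2 for Dnmt3l at 0.0543 CPM (others 0 to 0 CPM), control day 3 replicate 2 for Eln at 35.8 CPM (others 24.4 to 26.2 CPM) and control day 3 replicate 3 for Fos at 5.34 CPM (others 1.9 to 2.19 CPM).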

How the results depend on the processing

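Among the 138 genes followed, no called difference changed direction under any alternative, and of the 113 called over 14 libraries 96 kept their call under all of them and 17 lost it under at least 1. With 1 library left out at a time, the calls ran from 1591 (without control day 0 replicate 2) to 4051 (without cKO day 3 replicate 4), the higher ones from 965 (without cKO day 0 replicate 3) to 2326 and the lower ones from 618 (without control day 0 replicate 2) to 1725 (both without cKO day 3 replicate 4). The lower counts also moved by over 1.5 times without control day 0 replicates 1 and 3 and cKO day 0 replicate 3. Between 62.9% and 99.5% of the 14-library calls were shared, and each day 0 group is left with fewer libraries by construction. The remaining alternatives stayed within 1.5 times of the 2509 calls, from 1892 with thinning to one depth to 3379 with DESeq2. After the group mean of each gene was subtracted from its log2 CPM, same-numbered libraries of different groups correlated over 0.1 in 5 of 19 pairs (-0.232 to 0.237). Pairs with unlike numbers were not measured, so this does not decide whether the numbers pair the cultures. The fit with the replicate block called 2490 genes, with the calls of Ibsp and Gm11427 lost (adjusted p = 0.068 and 0.057). The term for libraries with Ddx3y transcript, chosen after seeing the data, gave 2586. Depth limits genes near 0: control levels at or under 3 counts bound a ratio only from below.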
